A study of Mus musculus with 8 samples.

Results

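The 36 genes described here mark T cells and natural killer (NK) cells, and they were followed in kidney tissue of mice at day 14. They were chosen by name, as the rows of a deposited gene table that carry one of 36 fixed symbols, and all 36 were found among the 34745 genes of that table. Messenger RNA had been sequenced from whole kidney tissue in 8 libraries. Sham kidneys gave 2 libraries, kidneys labelled uIRI gave 3, and kidneys labelled uIRI with transplantation of MSCs, called uIRI+MSC below, gave 3. The abbreviations are not spelled out in the labels; in kidney work uIRI is the usual short form of an ischaemia-reperfusion injury to a single kidney, and MSC that of a mesenchymal stromal cell. All 3 groups had the genotype WT, and no label gives the strain, age or sex of the mice, the operated side, or the origin, dose and day of the MSCs. Since no label ties a library to its own animal, each p-value here measures the spread between these libraries, which may be technical.

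T cells recognise peptide antigens through a T cell receptor (TCR) that signals through the CD3 chains. CD4 marks helper and regulatory T cells, whereas CD8 marks T cells that kill infected or altered cells with perforin and granzymes. NK cells use the same granules but read activating and inhibitory receptors in place of a TCR. Healthy kidney holds few of these cells, and after ischaemic injury T cells, regulatory T cells among them, are known to enter the organ.

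Library depth ranged from 11592986 to 24300112 counts. Levels are given as CPM, counts per 1000000 counts after scaling of the libraries by the TMM method, and as FPKM, the authors' value per gene length, where genes are set against each other. On the second principal component (8.7% of the variance) uIRI+MSC 2 lay highest, at 54.1 against -41.2 to 25.9 in the rest. On the third (6.57%) uIRI+MSC 3 stood apart, at -62.3 against -8.32 to 15.1. In uIRI+MSC 3, 11.3% of the counts came from mitochondrial genes, against 6.07 and 6.24% in uIRI+MSC 1 and 2. This share also differed between the groups, at 14.2% in both sham libraries and between 3.49 and 4.84% in uIRI, and its part in the results was not tested. The labelled tissue held its defining cells, since the 7 proximal tubule markers summed to 22200 and 20900 CPM in sham, to between 1150 and 3980 in uIRI, and to between 6230 and 7490 in uIRI+MSC. Markers shared by all leukocytes were far higher after injury: Ptprc, which encodes CD45, and 6 further genes summed to 85.4 and 92.3 CPM in sham, between 735 and 968 in uIRI, and between 579 and 611 in uIRI+MSC; 7 of 7 rose in uIRI against sham. In whole tissue, more cells of a type and more RNA per cell cannot be told apart.

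T and NK cell genes were higher in uIRI than in sham throughout. A gene was called changed at an adjusted p of 0.05 or less, from edgeR's quasi-likelihood test with Benjamini-Hochberg adjustment over 16576 genes, and changes are log2 values ± SE. In uIRI against sham 33 of the 36 genes were called higher and 0 lower, where 54.6% of all tested genes were called, 28.3% higher and 26.3% lower. With scaling by library size alone, which raised the median change of all genes by 0.667, 36 were called higher, as were 9044 of all genes against 1989 lower. The 3 genes that did not pass were Gzma, Gzmb and Ncr1; DESeq2 called these 3 (adjusted p = 0.0409, 0.01 and 0.0383) but not Ifng. For all 36 genes every uIRI library lay above both sham libraries, which held for 40.6% of all tested genes. The median change of the 36 was 2.76, against 0.0609 over all tested genes. Sham levels were close to the limit of detection: counts in a sham library ranged from 0 to 49 with a median of 8, and 28 of the 36 genes had under 10 counts in at least 1 sham library. Each change from sham therefore rests on few sham reads. Genes with almost no sham reads, such as Foxp3 with 0 counts and Ncr1 and Ifng with 1 each, passed the low-count filter through the injured kidneys. Such genes had little room to be lower, and the counts and medians of the 36 genes against sham carry this limit.

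**Figure D1:**
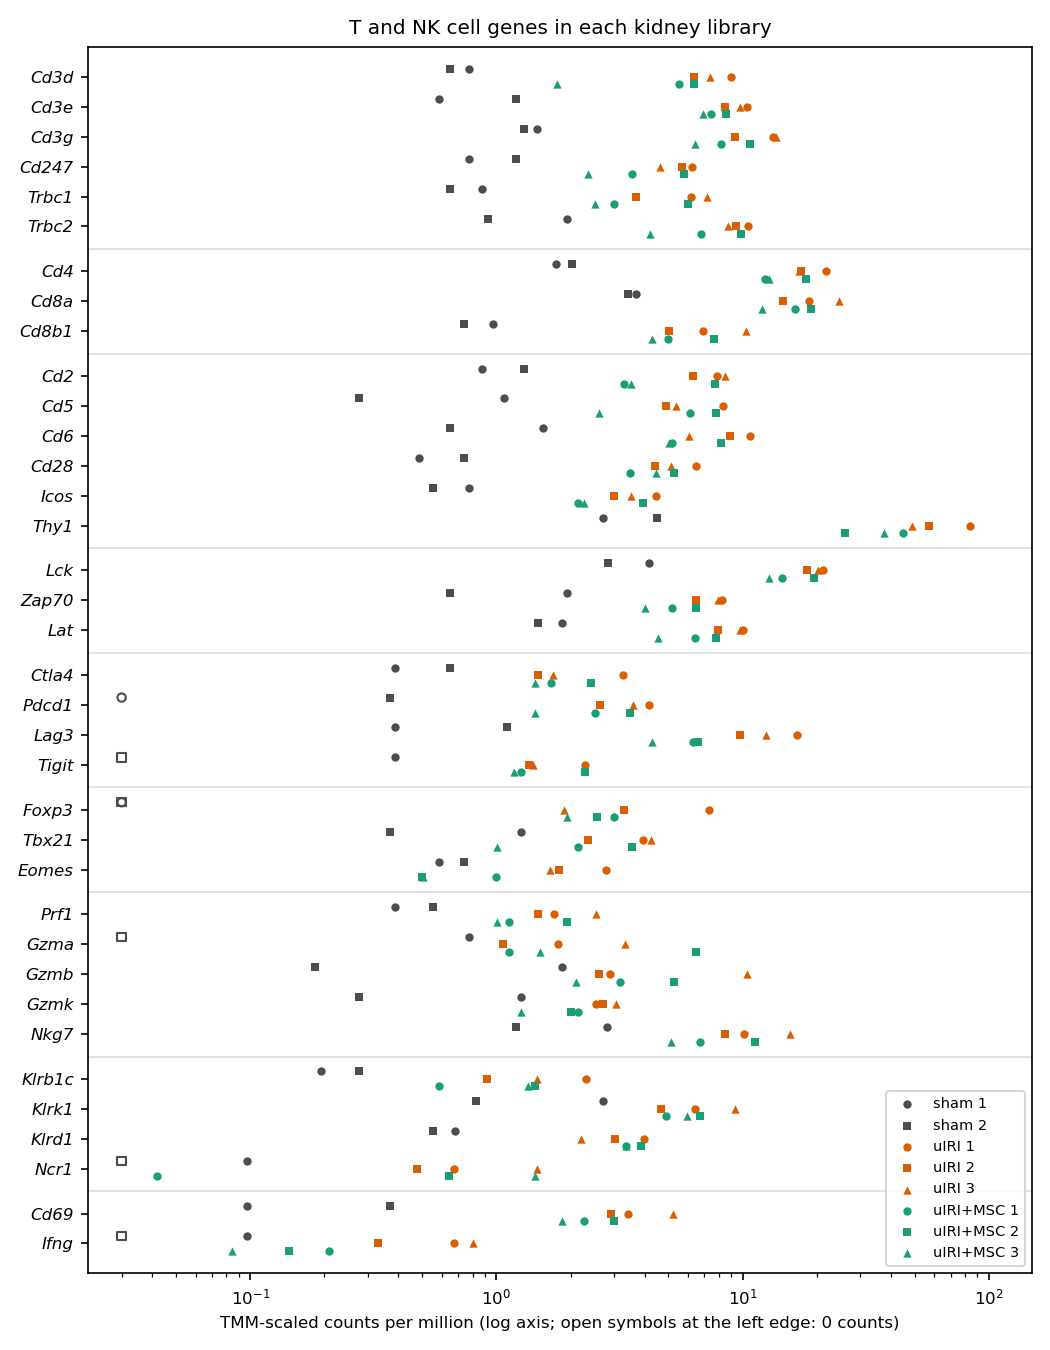
TMM-scaled CPM (log axis) of the 36 T and NK cell genes in each of the 8 libraries, grouped by role from CD3 chains (top) to activation genes (bottom); grey is sham, orange uIRI and green uIRI+MSC, and open symbols at the left edge stand for 0 counts. For all 36 genes the 3 uIRI libraries lie to the right of both sham libraries, and the uIRI+MSC libraries mostly lie among or somewhat left of the uIRI libraries.

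The chains of the TCR and CD3 complex, which define T cells, rose together. All 6 were called higher in uIRI, with a median change of 3.01. Cd3e, which encodes a signalling chain found in every T cell, stood at 0.583 and 1.20 CPM in sham, 10.4, 8.51 and 9.75 in uIRI, then 7.45, 8.58 and 6.89 in uIRI+MSC. The 3 uIRI libraries lay close together and far from sham, and the change was 3.41 ± 0.325 (adjusted p = 8.61e-05). Cd3g rose by 3.14 ± 0.335 (adjusted p = 0.000136) and Cd3d by 3.40 ± 0.586 (adjusted p = 0.00136). In uIRI+MSC 3, Cd3d was at 1.76 CPM, well below the 5.53 and 6.36 of the other uIRI+MSC libraries, while Cd3e showed no such gap. Cd247, which encodes the zeta chain that also serves NK cell receptors, rose by 2.47 ± 0.454 (adjusted p = 0.00191). Without sham 2 the change of Cd3e was 4.04, and without sham 1 that of Trbc2 was 3.39.

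Cd3g, Cd3d and Cd3e lie side by side on chromosome 9 (GRCm38), with 1361 bases between Cd3g and Cd3d and 11690 between Cd3d and Cd3e. Their promoters are shown because these neighbours rose together. Each line is the 250 bases before the RefSeq start (GRCm38.p6), 5′ to 3′ on the gene's strand. Capitals mark 3 short motifs of lymphocyte transcription factor families, searched on both strands: TGTGGT (RUNX), AGGAAG (ETS) and CACCTG (E-box), with no overlapping matches.
Cd3g, chr9:44980432-44980681, minus strand: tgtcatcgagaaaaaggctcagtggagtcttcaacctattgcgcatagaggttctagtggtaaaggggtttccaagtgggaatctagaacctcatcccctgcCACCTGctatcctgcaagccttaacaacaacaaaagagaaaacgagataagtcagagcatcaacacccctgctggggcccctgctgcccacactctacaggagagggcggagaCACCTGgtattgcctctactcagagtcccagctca
Cd3d, chr9:44981536-44981785, plus strand: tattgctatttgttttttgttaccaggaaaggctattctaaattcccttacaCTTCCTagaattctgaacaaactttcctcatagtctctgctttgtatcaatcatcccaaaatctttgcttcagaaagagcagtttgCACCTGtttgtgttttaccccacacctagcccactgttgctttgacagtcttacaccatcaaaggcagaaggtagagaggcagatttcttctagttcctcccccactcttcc
Cd3e, chr9:45009612-45009861, minus strand: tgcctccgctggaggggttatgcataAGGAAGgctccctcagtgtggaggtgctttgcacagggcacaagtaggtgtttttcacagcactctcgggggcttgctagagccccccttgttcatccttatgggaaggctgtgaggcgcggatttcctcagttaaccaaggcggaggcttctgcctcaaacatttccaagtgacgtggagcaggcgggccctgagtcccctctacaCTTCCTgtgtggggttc
Cd3g held 2 E-box matches, Cd3d held 1 ETS and 1 E-box match, and Cd3e held 2 ETS matches. RefSeq entries were found for 24 of the 36 genes, with 29 start windows in all. TGTGGT was present in 37.9% of these windows and in 14.0% of all 32851 windows in the table. AGGAAG was present in 55.2% against 29.5%, and CACCTG in 41.4% against 17.2%. A match is a description of the letters and not a binding site.

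The genes for the constant part of the TCR beta chain, Trbc1 and Trbc2, also rose. Trbc1 stood at 0.874 and 0.645 CPM in sham, 6.16, 3.70 and 7.16 in uIRI, and 3.01, 6.0 and 2.52 in uIRI+MSC, a change of 2.89 ± 0.538 in uIRI (adjusted p = 0.00203). Trbc2 stood at 1.94 and 0.921, then 10.5, 9.42 and 8.71, then 6.78, 9.86 and 4.20, a change of 2.74 ± 0.446 (adjusted p = 0.00101). Both genes were lowest in sham with no overlap. How reads were divided between them is uncertain, because they are close copies 6848 bases apart on chromosome 6, and no source used here states the counting rule. Their coding parts, 518 bases in the GENCODE M21 transcripts on GRCm38, differ at 23 positions (95.6% identity). In the first exon, 375 bases, they differ only by C260A, counted from the first coding base, with the base of Trbc1 first. The remaining 143 coding bases hold the other 22 differences and are shown because most differing coding bases lie there; capitals mark the differing bases, and both genes lie on the plus strand.
Trbc1, coding bases 376 to 518, within chr6:41539114-41539662: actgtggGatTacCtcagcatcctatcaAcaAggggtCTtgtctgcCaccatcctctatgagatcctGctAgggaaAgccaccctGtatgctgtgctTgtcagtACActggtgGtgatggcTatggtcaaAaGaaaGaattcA
Trbc2, coding bases 376 to 518, within chr6:41547610-41548178: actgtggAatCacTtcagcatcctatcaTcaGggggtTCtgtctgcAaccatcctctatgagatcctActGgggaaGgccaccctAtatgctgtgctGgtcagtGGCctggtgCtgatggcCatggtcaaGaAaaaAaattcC

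All 3 coreceptor genes rose. Cd4, on chromosome 6 and also expressed by some macrophages and dendritic cells, stood at 1.75 and 2.03 CPM in sham, 21.9, 17.3 and 17.0 in uIRI, then 12.3, 18.1 and 12.8 in uIRI+MSC. Its change in uIRI was 3.31 ± 0.278 (adjusted p = 5.36e-05). Cd8a stood at 3.69 and 3.41 in sham, 18.6, 14.6 and 24.6 in uIRI, then 16.3, 18.9 and 12.0 in uIRI+MSC, a change of 2.44 ± 0.306 (adjusted p = 0.000279). Cd8b1, the chain that pairs with it on conventional CD8 T cells, stood at 0.972 and 0.737, then 6.94, 5.02 and 10.3, then 4.98, 7.65 and 4.28, a change of 3.11 ± 0.463 (adjusted p = 0.000636). Both CD8 chains were highest in uIRI 3, whereas Cd4 was highest in uIRI 1. The difference between the changes of Cd4, Cd8a and Cd8b1 was not tested.

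Cd8a is also carried by a class of dendritic cells, and markers of those cells moved with it. Of 7 dendritic cell markers 6 rose in uIRI against sham, and their summed level was 30.8 and 31.3 CPM in sham, between 178 and 267 in uIRI, and between 131 and 165 in uIRI+MSC. Xcr1, which marks cross-presenting dendritic cells, was at 2.62 and 1.47 CPM in sham, 12.6, 7.96 and 12.7 in uIRI, then 5.44, 5.43 and 6.30 in uIRI+MSC. Macrophage and monocyte markers, which bear on Cd4, rose for 10 of 11 genes, with sums of 278 and 331 CPM in sham, between 1870 and 2690 in uIRI, and between 1230 and 1390 in uIRI+MSC. The defining markers Flt3, Clec9a, Csf1r and Adgre1 were detected in every library, and the part of both lists in the change of Cd4 and Cd8a was not tested.

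Surface molecules for adhesion and costimulation rose in uIRI in 6 of 6 cases, with a median of 3.04. Cd28, the receptor that gives the second signal for T cell activation, stood at 0.486 and 0.737 CPM in sham, 6.5, 4.40 and 5.13 in uIRI, then 3.48, 5.29 and 4.45 in uIRI+MSC, a change of 3.11 ± 0.382 (adjusted p = 0.000253). Icos, a second costimulatory receptor that is induced on activated T cells, changed by 2.45 ± 0.438. Cd2, an adhesion receptor for Cd48, changed by 2.79 ± 0.475, and the scavenger-type receptors Cd5 and Cd6, neighbours on chromosome 19, by 3.21 ± 0.659 and 2.97 ± 0.461. Cd5 was the most uneven of the group, at 1.07 and 0.276 CPM in sham, and its change was 4.48 without sham 1 and 2.55 without sham 2, while that of Cd6 was 3.74 without sham 1.

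Thy1, which encodes a surface protein of mouse T cells that fibroblasts and some other cells also carry, had the highest mean FPKM of the 36 genes in each group, although in sham, at 1.55 ± 0.626 (SD, n = 2), it did not differ from Trbc2, at 1.5 ± 0.681, beyond their spread. It stood at 2.72 and 4.51 CPM in sham, 83.8, 57.0 and 48.8 in uIRI, then 44.8, 26.2 and 37.5 in uIRI+MSC, and it rose by 4.12 ± 0.381 in uIRI (adjusted p = 7.55e-05). Its 3 groups did not overlap. Per unit of Cd3e FPKM it was 3.86 and 3.12 in sham, 6.69, 5.54 and 4.15 in uIRI, then 4.98, 2.52 and 4.50 in uIRI+MSC. Markers of fibroblasts and pericytes moved with it: 7 of 7 rose in uIRI against sham, and their sum was 308 and 427 CPM in sham, between 3550 and 8380 in uIRI, and between 2130 and 3890 in uIRI+MSC. As for Thy1, the sum was highest in uIRI 1 and, among injured kidneys, lowest in uIRI+MSC 2; its part in the change of Thy1 was not tested.

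The kinases and the adaptor that relay the TCR signal rose in 3 of 3 cases, with a median of 2.5. Lck, the kinase that first phosphorylates the CD3 chains, stood at 4.18 and 2.85 CPM in sham, 21.3, 18.2 and 20.3 in uIRI, then 14.5, 19.6 and 12.8 in uIRI+MSC, a change of 2.5 ± 0.267 (adjusted p = 0.000135). Zap70, the kinase recruited next, changed by 2.55 ± 0.436 (adjusted p = 0.0013), and by 3.56 without sham 1. Lat, the adaptor on which the complex is built, changed by 2.47 ± 0.314 (adjusted p = 0.000301). All 3 were highest in uIRI 1 and lowest in uIRI 2 among the uIRI libraries.

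All 4 inhibitory receptors rose, with the largest median of the groups that held at least 4 genes, 3.60. Lag3, which binds MHC class II and restrains T cells, stood at 0.389 and 1.1 CPM in sham, 16.6, 9.79 and 12.4 in uIRI, then 6.32, 6.58 and 4.28 in uIRI+MSC. Its 3 groups did not overlap, and its change in uIRI was 4.09 ± 0.464 (adjusted p = 0.000175), or 5.06 without sham 2. Lag3 lies 16139 bases from Cd4 on chromosome 6. Pdcd1, which encodes PD-1, was at 0 and 0.368 CPM in sham, 4.18, 2.64 and 3.58 in uIRI, then 2.51, 3.50 and 1.43 in uIRI+MSC, a change of 4.16 ± 0.788 (adjusted p = 0.00224). Its sham level rests on 4 reads, all in sham 2; without sham 1 the change was 3.23, and without sham 2 no sham reads were left.

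The calls of the other inhibitory receptors, Ctla4 and Tigit, rested on fewer reads than that of Lag3. Ctla4, a competitor of Cd28 that regulatory T cells carry constantly, stood at 0.389 and 0.645 CPM in sham, 3.27, 1.47 and 1.70 in uIRI, then 1.67, 2.43 and 1.43 in uIRI+MSC, a change of 2.04 ± 0.548 (adjusted p = 0.0126). Tigit, which competes for ligands of the nectin family, stood at 0.389 and 0 in sham, 2.29, 1.36 and 1.41 in uIRI, then 1.26, 2.29 and 1.18 in uIRI+MSC, a change of 3.11 ± 0.833 (adjusted p = 0.0125). Each call depended on 1 sham library: Ctla4 was at 1.75 (adjusted p = 0.0912) without sham 1 and Tigit at 2.13 (adjusted p = 0.0538) without sham 2, while without sham 1 no sham reads of Tigit were left.

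Foxp3, the transcription factor that defines regulatory T cells, was detected after injury and not in sham. It had 0 counts in both sham libraries, which allows up to 0.142 CPM over the group, and 348 counts in uIRI and 131 in uIRI+MSC. In uIRI it was at 7.34, 3.30 and 1.88 CPM, and in uIRI+MSC at 3.01, 2.57 and 1.93. Against sham set to 3 counts over the group, it was at least 31.4-fold higher in uIRI and at least 18.6-fold higher in uIRI+MSC. The edgeR fit called it in both (adjusted p = 0.00127 and 0.00393), but these p-values do not test the bounds. The gene passed the low-count filter only through the injured kidneys. uIRI 1 held 218 of the 348 counts; without it the bound was 18.9-fold, and the gene was still called (adjusted p = 0.000777).

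Tbx21 and Eomes, the T-box factors of type 1 helper, cytotoxic and NK cells, rose in uIRI, but neither call held without each library in turn. Tbx21, which encodes T-bet, stood at 1.26 and 0.368 CPM in sham, 3.94, 2.35 and 4.24 in uIRI, then 2.14, 3.57 and 1.01 in uIRI+MSC, a change of 2.11 ± 0.662 (adjusted p = 0.025). Eomes stood at 0.583 and 0.737 in sham, 2.79, 1.80 and 1.65 in uIRI, and 1.00, 0.500 and 0.504 in uIRI+MSC. Its change in uIRI, 1.65 ± 0.487 (adjusted p = 0.0192), was the smallest of the 36 genes. The call of Tbx21 was lost without sham 2 (1.49, adjusted p = 0.147), uIRI 1 (2.01, adjusted p = 0.0519) or uIRI 3 (1.95, adjusted p = 0.0571), and its value was 3.25 without sham 1. The call of Eomes was lost without sham 1 (1.52, adjusted p = 0.109), sham 2 (1.85, adjusted p = 0.0647) or uIRI 1 (1.38, adjusted p = 0.0567).

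Of the 5 genes of the cytotoxic granule 3 were called higher in uIRI and 2 were not, with a median of 2.38. Nkg7, a granule membrane protein of cytotoxic cells, stood at 2.82 and 1.20 CPM in sham, 10.1, 8.51 and 15.6 in uIRI, then 6.74, 11.2 and 5.12 in uIRI+MSC, a change of 2.51 ± 0.500 (adjusted p = 0.00288). Prf1, which encodes perforin, changed by 1.99 ± 0.505 (adjusted p = 0.00961), and Gzmk, a granzyme of memory CD8 cells, by 1.85 ± 0.540 (adjusted p = 0.0183). Gzmb, the main apoptosis-inducing granzyme, was at 1.85 and 0.184 CPM in sham, 2.90, 2.60 and 10.4 in uIRI, then 3.18, 5.29 and 2.10 in uIRI+MSC, and its change of 2.38 ± 0.935 did not pass (adjusted p = 0.0577). Gzma was at 0.777 and 0 in sham, 1.78, 1.06 and 3.34 in uIRI, then 1.13, 6.5 and 1.51 in uIRI+MSC, and its change of 2.40 ± 1.21 did not pass either (adjusted p = 0.123).

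The spread of the granule genes followed single libraries. All 5 were highest in uIRI 3 among the uIRI libraries, and their summed level was 19.0, 16.4 and 35.0 CPM in uIRI 1, 2 and 3. In sham, Gzmb had 19 counts in library 1 and 2 in library 2. Over all alternatives the change of Gzmb ranged from 1.45 to 4.81, the highest without sham 1. It was called without uIRI 1 (adjusted p = 0.0473), without uIRI 2 (adjusted p = 0.0445) and without the low-count filter (adjusted p = 0.0462). It was not called without uIRI 3 or with limma-voom. Gzmk was at 3.31 without sham 1 and at 1.15 (adjusted p = 0.0836) without sham 2, Nkg7 at 3.27 without sham 1, and Prf1 at 1.79 (adjusted p = 0.0731) without sham 1. The promoter of Gzmb, which ranged from 2.60 to 10.4 CPM within uIRI, is printed with the capitals used above for the CD3 genes. It holds 2 RUNX matches.
Gzmb, chr14:56262335-56262584, minus strand: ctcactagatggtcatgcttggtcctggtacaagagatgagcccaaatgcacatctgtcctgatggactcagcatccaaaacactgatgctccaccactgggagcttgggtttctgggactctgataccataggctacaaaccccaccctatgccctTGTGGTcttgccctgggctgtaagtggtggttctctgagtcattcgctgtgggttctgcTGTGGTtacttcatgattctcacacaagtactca

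Of 4 receptors typical of NK cells 3 rose in uIRI. Klrd1, which encodes CD94 and pairs with NKG2 chains, stood at 0.680 and 0.552 CPM in sham, 3.97, 3.04 and 2.21 in uIRI, then 3.35, 3.86 and 3.36 in uIRI+MSC, a change of 2.32 ± 0.388 (adjusted p = 0.00117). Klrk1, which encodes the stress receptor NKG2D of NK and CD8 T cells, changed by 1.94 ± 0.495 (adjusted p = 0.00996), with sham at 2.72 and 0.829 CPM. Klrb1c, the gene of the NK1.1 antigen, changed by 2.70 ± 0.712 (adjusted p = 0.0116). Ncr1, which encodes NKp46 and is the most NK-restricted of the 4, had 1 count in sham and 64 in uIRI, a ratio of 17.3 with an exact 95% counting interval of 3.0 to 694, and did not pass (adjusted p = 0.077). In uIRI it was at 0.673, 0.477 and 1.46 CPM, and in uIRI+MSC at 0.0419, 0.643 and 1.43, so that uIRI+MSC 1, with 1 count, was at the level of sham. Klrk1 was at 3.04 without sham 1 and at 1.34 (adjusted p = 0.054) without sham 2, and Klrb1c lost its call without sham 1 (adjusted p = 0.0792) or sham 2 (adjusted p = 0.0523). Ncr1 was called without uIRI+MSC 1 (adjusted p = 0.0235) and in a fit of only the 2 groups (adjusted p = 0.0272). It was not called without uIRI 1, uIRI 2 or uIRI 3, or with limma-voom.

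The activation marker and the effector cytokine both rose. Cd69, a protein that recently activated and tissue-resident lymphocytes carry, stood at 0.0972 and 0.368 CPM in sham, 3.43, 2.93 and 5.23 in uIRI, then 2.26, 3.0 and 1.85 in uIRI+MSC, a change of 3.99 ± 0.575 (adjusted p = 0.000537). Without sham 1 it was 3.39 and without sham 2 it was 5.24. Ifng, which encodes interferon gamma, had 1 count in sham, 46 in uIRI and 8 in uIRI+MSC. In uIRI the ratio of summed counts was 12.4 with an exact 95% counting interval of 2.12 to 502, and the gene was called (adjusted p = 0.0178). The call of Ifng was lost without sham 2 (adjusted p = 0.11) and with DESeq2 (adjusted p = 0.0503), and without sham 1 no sham reads were left.

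**Figure D2:**
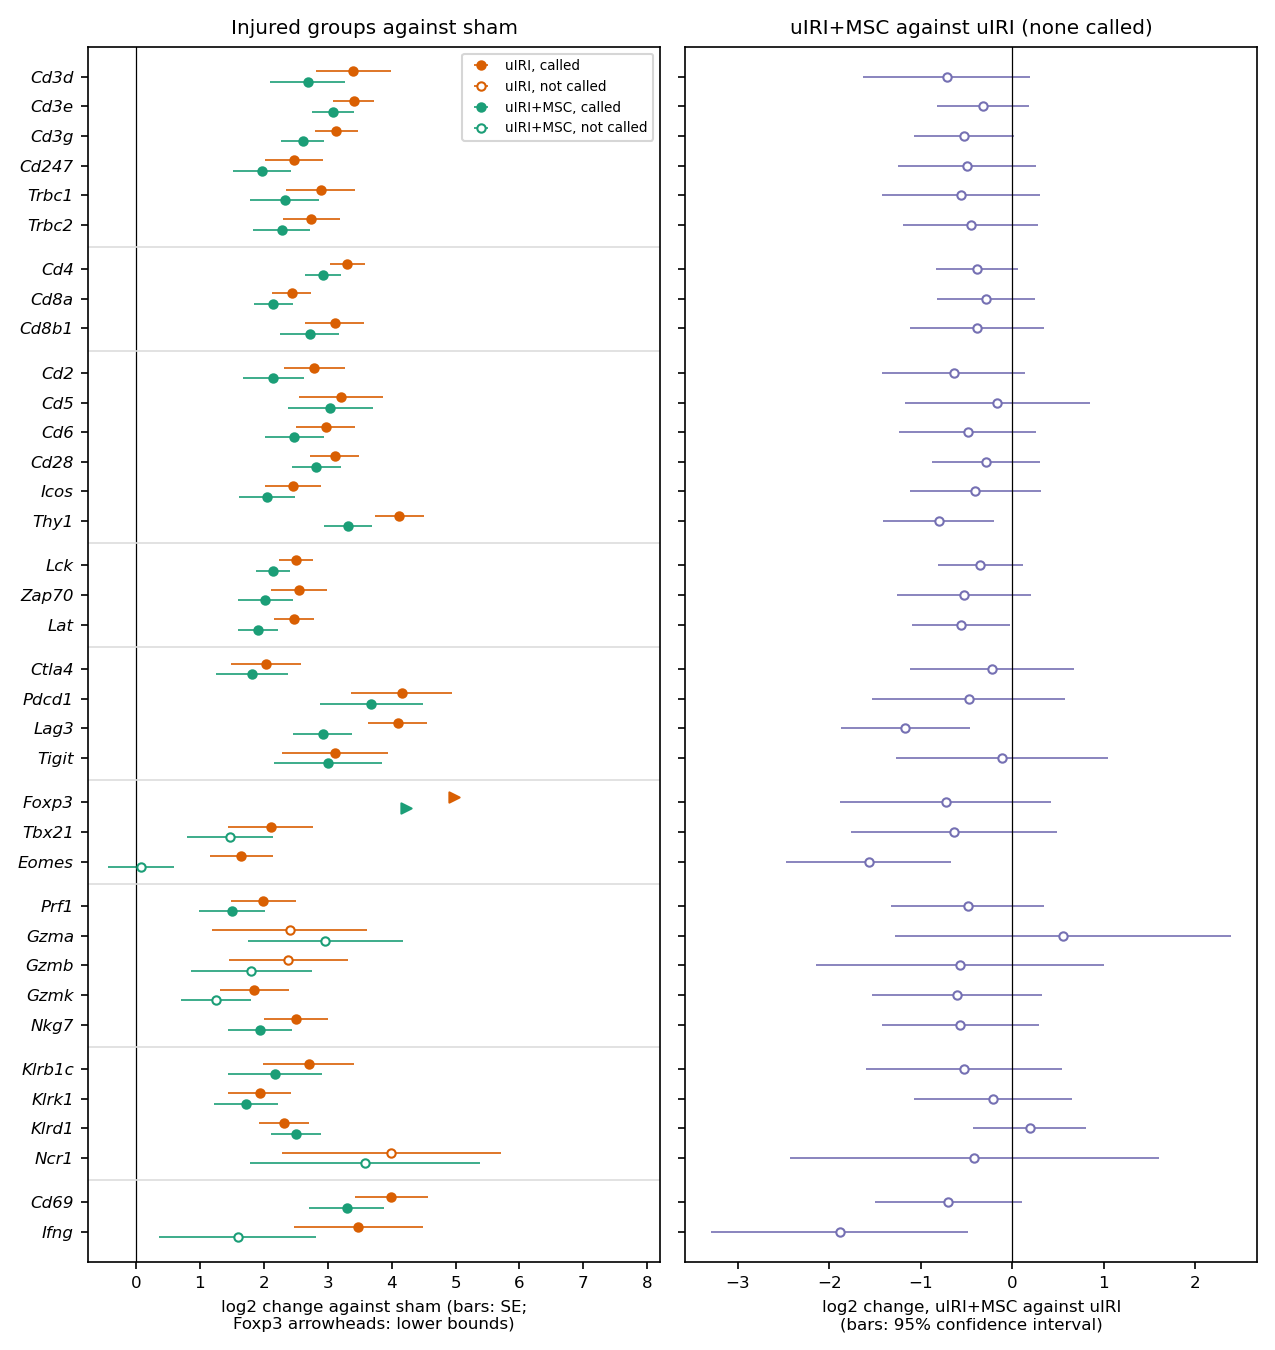
Left, log2 change of the 36 genes in uIRI (orange) and uIRI+MSC (green) against sham, with SE bars, filled where the adjusted p was 0.05 or less; Foxp3 is drawn as arrowheads at its lower bounds because sham had 0 counts. Right, log2 change of uIRI+MSC against uIRI with 95% confidence intervals; 34 of the 36 points lie below 0 and 0 were called.

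The comparison of uIRI+MSC with uIRI asks what transplantation changed in the injured kidney. With edgeR 0 of the 36 genes were called, as were 0 of all 16576 genes (0% higher and 0% lower), although 3418 genes had an unadjusted p under 0.05. DESeq2 called 794 genes higher and 570 lower, and limma-voom called 0. Of the 36 genes 34 were lower in uIRI+MSC than in uIRI, with a median of -0.49, while the median of all genes was -0.00794 and 50.9% of them were lower. The exceptions were Gzma, at 0.56 ± 0.805, and Klrd1, at 0.19 ± 0.272. Both comparisons with uIRI use the same uIRI libraries, so a high uIRI library raises one and lowers the other. Leaving out each library in turn moved the median between -0.32 (without uIRI+MSC 3, with 32 genes lower) and -0.74 (without uIRI+MSC 2, with 35 lower).

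For 6 genes all 3 uIRI+MSC libraries lay below all 3 uIRI libraries, namely Ifng, Gzmk, Lag3, Eomes, Lat and Thy1. Among all tested genes 12.7% lay below and 14.1% above in this way. Eomes, the factor of cytotoxic and NK cells, was the furthest below by p, at -1.57 ± 0.394 (adjusted p = 0.117). Its uIRI+MSC levels of 0.500 to 1.00 CPM overlapped those of sham, 0.583 and 0.737. Lag3 was at -1.17 ± 0.309 (adjusted p = 0.121), with 4.28 to 6.58 CPM in uIRI+MSC against 9.79 to 16.6 in uIRI. DESeq2 called both lower, Eomes at -1.60 (adjusted p = 0.0277) and Lag3 at -1.19 (adjusted p = 0.00697); over all alternatives the adjusted p ranged from 0.0277 to 0.27 for Eomes and from 0.00697 to 0.294 for Lag3.

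In uIRI, Ifng was at 0.673, 0.330 and 0.801 CPM, and in uIRI+MSC at 0.209, 0.143 and 0.0840, with 46 counts against 8, and its change was -1.89 ± 0.615 (adjusted p = 0.151). Thy1 was at -0.80 ± 0.266 (adjusted p = 0.156), Lat at -0.56 ± 0.236 (adjusted p = 0.23) and Gzmk at -0.60 ± 0.408 (adjusted p = 0.438). These differences did not pass the threshold, and the 95% intervals show what sizes the data allow. For Cd3e the interval ran from -0.83 to 0.19, for Cd4 from -0.83 to 0.07 and for Cd8a from -0.82 to 0.24. For Foxp3 it ran from -1.88 to 0.42, and for Gzmb from -2.15 to 1.00.

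Single libraries set the order within the groups. Among the uIRI libraries, uIRI 1 was highest for 21 genes and uIRI 3 for 15, while uIRI 2 was highest for 0 and lowest for 27. All 4 inhibitory receptors were highest in uIRI 1, and all 5 granule genes in uIRI 3. Among the uIRI+MSC libraries, uIRI+MSC 2 was highest for 30 genes and uIRI+MSC 3 lowest for 25. The summed level of the 36 genes was 42.3 and 32.5 CPM in sham, 341, 248 and 301 in uIRI, then 203, 249 and 167 in uIRI+MSC. By this sum uIRI+MSC 2 was level with uIRI 2, but Thy1, which fibroblasts also carry, weighed on it unevenly. Thy1 gave 57.0 CPM of the sum in uIRI 2 and 26.2 in uIRI+MSC 2. For Gzma the higher mean in uIRI+MSC came from uIRI+MSC 2 alone, at 6.5 CPM, and without it the change from uIRI was -0.65. For Gzmb the higher mean in uIRI came from uIRI 3, at 10.4 CPM, and without it the change was 0.36.

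General leukocyte markers moved the same way in this comparison. In uIRI+MSC against uIRI 7 of 7 were lower with 0 called, and their median was -0.57. Dendritic cell markers had a median of -0.57 (6 of 7 lower) and macrophage markers of -0.82 (11 of 11 lower). Proximal tubule markers were higher in 7 of 7 cases, with a median of 1.22 and 0 called. The part of these markers in the lower values of the T and NK cell genes was not tested.

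Most of the genes were also higher in uIRI+MSC than in sham. Of the 36 genes 29 were called higher and 0 lower, where 42.4% of all tested genes were called, 22.1% higher and 20.3% lower. All uIRI+MSC libraries lay above both sham libraries for 31 of the 36, and did so for 33% of all tested genes, while 31.2% lay below. The median was 2.31, against 0.0346 over all genes. This comparison shares its sham libraries with uIRI against sham, so their values stand side by side. All 6 TCR and CD3 chains, all 3 coreceptor genes, all 6 surface molecules, all 3 signalling genes and all 4 inhibitory receptors were called in both. Cd4 was at 2.92 ± 0.276 in uIRI+MSC and 3.31 ± 0.278 in uIRI, Cd3e at 3.08 ± 0.326 and 3.41 ± 0.325, and Lag3 at 2.92 ± 0.462 and 4.09 ± 0.464. Without uIRI+MSC 3, 29 genes were called, 28 of them the same, with a median of 2.54.

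The 7 genes not called in uIRI+MSC against sham were Tbx21, Eomes, Gzma, Gzmb, Gzmk, Ncr1 and Ifng. Of these, 4 had been called in uIRI against sham (Tbx21, Eomes, Gzmk and Ifng), while Prf1, Nkg7, Klrd1, Klrk1 and Klrb1c, other genes of the granule and NK receptor groups, were called in both. Eomes was at 0.08 ± 0.515 (adjusted p = 0.916), with overlapping groups. Tbx21 was at 1.47 ± 0.671 (adjusted p = 0.109), Gzmk at 1.25 ± 0.549 (adjusted p = 0.0986) and Ifng at 1.59 ± 1.23 (adjusted p = 0.324). A call in one comparison and not in the other does not show that they differ, and the direct test of uIRI+MSC against uIRI called 0. Tbx21 passed without uIRI+MSC 3 (1.83, adjusted p = 0.0455), Gzmk without sham 1 (2.73, adjusted p = 0.02) and Ncr1 without uIRI+MSC 1 (4.25, adjusted p = 0.0309). Gzma, at 2.96 ± 1.21 (adjusted p = 0.0793), was called by DESeq2 (adjusted p = 0.0136). With limma-voom, Tbx21, Gzmk, Ncr1 and Gzma were not called.

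Several calls of uIRI+MSC against sham were lost when a library was left out or another setting was used. Prf1 (1.5 ± 0.518, adjusted p = 0.0446) lost its call without sham 1, sham 2, uIRI 1, uIRI 2, uIRI+MSC 1 or uIRI+MSC 2, with adjusted p from 0.0538 to 0.203, and with DESeq2 (0.0545), limma-voom (0.0953), no low-count filter (0.0548), a fit of only the 2 groups (0.0689) or a replicate block (0.0947). Klrb1c (2.17 ± 0.738, adjusted p = 0.0426) lost it without either sham library, uIRI 3, uIRI+MSC 2 or uIRI+MSC 3, with adjusted p from 0.0597 to 0.186, and with limma-voom (0.133) or a replicate block (0.1). Ctla4 (1.82 ± 0.557) lost it without sham 1 (adjusted p = 0.161), sham 2 (0.067) or uIRI+MSC 2 (0.0697), and with limma-voom (0.0711). Without sham 1, Cd2 (1.94, adjusted p = 0.0639) and Cd247 (1.74, adjusted p = 0.073) were no longer called; without sham 2, Nkg7 (1.48, adjusted p = 0.0904), Klrk1 (1.14, adjusted p = 0.107), Tigit (2.03, adjusted p = 0.0798) and Trbc1 (2.16, adjusted p = 0.0619) were not. Klrk1 was also lost without uIRI+MSC 2 (adjusted p = 0.052). With each sham library left out in turn, called changes that moved by over 1.5-fold were those of Cd5 (4.33), Cd6 (3.27), Cd69 (2.70), Klrk1 (2.84), Nkg7 (2.71), Pdcd1 (2.77), Trbc2 (2.95) and Zap70 (3.05) without sham 1, and of Cd3e (3.73), Cd5 (2.40), Cd69 (4.56) and Lag3 (3.90) without sham 2. Tigit without sham 1 and Pdcd1 without sham 2 had no sham reads left, and their fitted values, 7.97 (adjusted p = 0.0137) and 8.64 (adjusted p = 0.00706), are no exact folds.

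Ratios of FPKM within a library describe the makeup of the T and NK cell signal apart from its total. They are given with no test, and they depend on the gene length the authors used, which for Cd8a was 5.35 times and for Cd4 3.44 times that for Cd3e. The ratio of Cd8a to Cd4 was 1.36 and 1.08 in sham, 0.548, 0.544 and 0.929 in uIRI, then 0.856, 0.675 and 0.602 in uIRI+MSC. Every injured library was below sham, and uIRI and uIRI+MSC overlapped. Relative to Cd3e, Cd8a showed the same order, at 1.18 and 0.531 in sham and 0.321 to 0.471 in the injured libraries. Dendritic cells also carry Cd8a, and their part in this order was not tested. The ratio of Cd8b1 to Cd3e did not show it. That ratio was 1.61 and 0.596 in sham, 0.648, 0.572 and 1.02 in uIRI, then 0.647, 0.863 and 0.602 in uIRI+MSC, with overlapping groups. The ratio of Foxp3 to Cd4 was 0.248, 0.141 and 0.0817 in uIRI, then 0.182, 0.105 and 0.111 in uIRI+MSC, with sham at 0, so that the range within uIRI covered uIRI+MSC.

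Relative to Cd3e, Lag3 was at 0.443 and 0.613 in sham, 1.06, 0.764 and 0.847 in uIRI, then 0.563, 0.509 and 0.413 in uIRI+MSC. The uIRI libraries lay above all others, and uIRI+MSC overlapped sham. Pdcd1 showed no such order: relative to Cd3e it was at 0.3, 0.231 and 0.273 in uIRI, then 0.251, 0.304 and 0.154 in uIRI+MSC. Eomes relative to Cd3e was at 0.201 and 0.124 in sham, 0.0542, 0.0425 and 0.0340 in uIRI, then 0.0271, 0.0117 and 0.0147 in uIRI+MSC, so that its 3 groups did not overlap. Gzmb varied widely within sham, and relative to Cd3e was at 3.21 and 0.156 in sham, 0.283, 0.310 and 1.08 in uIRI, then 0.432, 0.624 and 0.309 in uIRI+MSC. Sham ratios rest on few reads, such as 6 and 13 for Cd3e. The ratios of Eomes rest on few reads in uIRI+MSC too, with 24, 7 and 6 counts there and 6 and 8 in sham.

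**Figure D3:**
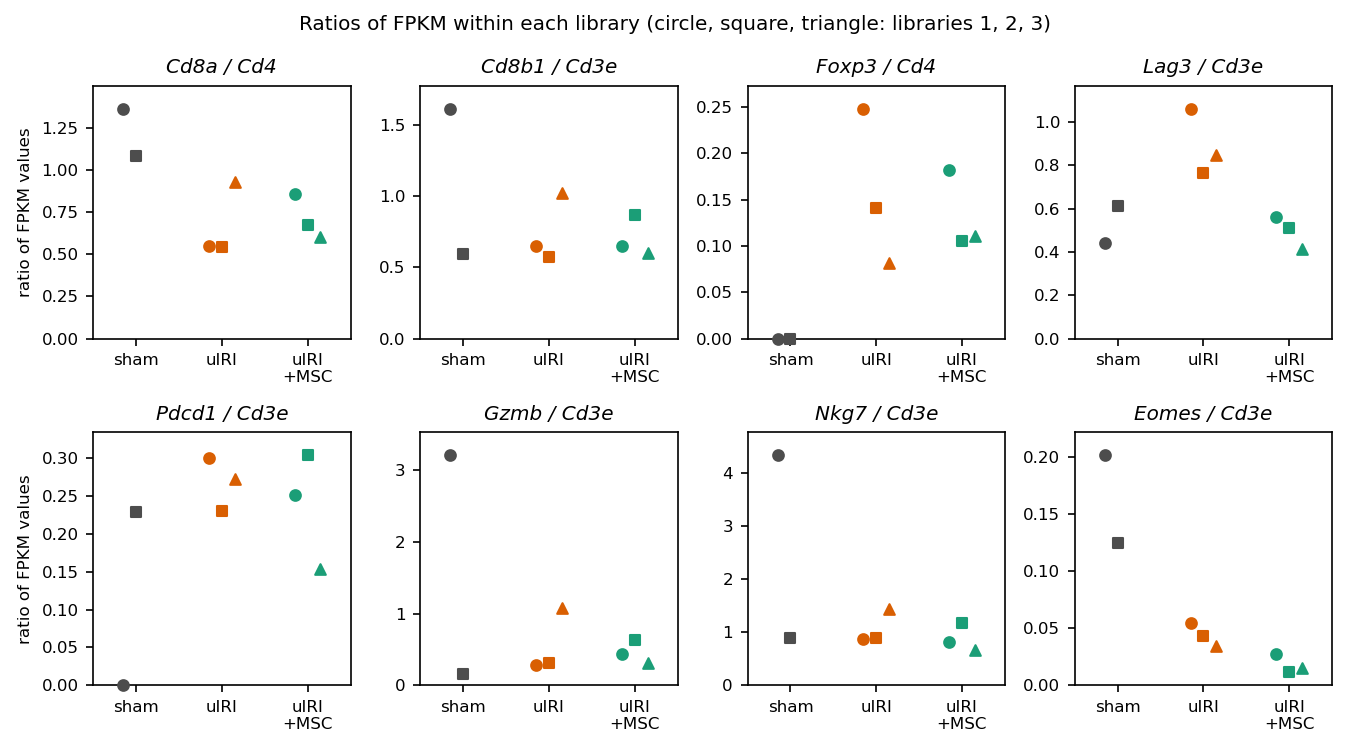
Ratio of the FPKM of 2 genes within each library, by group, with circles, squares and triangles for libraries 1, 2 and 3. Lag3 relative to Cd3e is highest in the 3 uIRI libraries. Eomes relative to Cd3e falls in 3 separate ranges, which rest on few reads in sham and uIRI+MSC. Cd8a relative to Cd4 is highest in the 2 sham libraries, while Cd8b1 relative to Cd3e overlaps between the groups. Sham 1 is the highest point for Gzmb and Nkg7.

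In order of FPKM, Thy1 (42.9 ± 14.2 SD, n = 3), Trbc2 (16.2 ± 2.16), Cd3g (10.6 ± 2.36) and Nkg7 (8.33 ± 2.68) led in uIRI. Nkg7, Cd3e (7.78 ± 1.07), Trbc1 (7.77 ± 2.53) and Lag3 (7.04 ± 2.16) did not differ beyond their spread. Cd8b1 was at 5.84 ± 2.08, Cd4 at 4.44 ± 0.830 and Gzmb at 4.34 ± 3.57, again within their spread. At the low end stood Foxp3 (0.739 ± 0.531), Ncr1 (0.638 ± 0.375), Ifng (0.585 ± 0.243), Klrb1c (0.380 ± 0.188) and Eomes (0.343 ± 0.118). In uIRI+MSC the leading genes were Thy1 (21.9 ± 5.57), Trbc2 (10.6 ± 4.51) and Cd3g (6.63 ± 1.82), and Eomes was again lowest, at 0.0986 ± 0.0431.

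Genes that recruit and steer these cells, taken from lists of related genes, were mostly higher in uIRI than in sham. Among all tested genes 28.3% were called higher and 26.3% lower there. Counts and medians of these and the further related lists carry the limit given above for genes with few sham reads. Of 12 tested chemokines and receptors that attract lymphocytes 11 rose, with a median of 3.2. Cxcl16, the ligand of Cxcr6, was at 45.2 and 48.8 CPM in sham, between 225 and 240 in uIRI, and between 222 and 295 in uIRI+MSC. Unlike most of the 36 genes it was not lower in uIRI+MSC, at 0.09 ± 0.138. Of 13 cytokine and cytokine receptor genes for T and NK cell survival 8 rose, 1 fell and 4 were not called. Il2rg, the shared chain of several interleukin receptors, rose by 2.94 ± 0.227 (adjusted p = 4.19e-05). Il15, which sustains NK and memory CD8 cells, fell by 0.88 (adjusted p = 0.0083). Proximal tubule markers fell beside it in 7 of 7 cases, and their part in the change of Il15 was not tested.

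Ligands of the receptors described above also rose. Of 11 ligands of inhibitory and costimulatory receptors 9 rose with a median of 2.41, where 28.3% of all tested genes were called higher. The largest fitted change of this list, 7.33, belongs to a gene at 0 counts in sham and is no exact fold. Cd86, the ligand of Cd28 and Ctla4, rose by 3.02 ± 0.230 (adjusted p = 3.85e-05), and Cd48, the ligand of Cd2, by 3.54 ± 0.286 (adjusted p = 4.85e-05). Lgals9, a ligand of the inhibitory receptor TIM-3, stood at 18.6 and 15.8 CPM in sham, 92.8, 87.0 and 94.6 in uIRI, then 62.6, 44.8 and 51.5 in uIRI+MSC, 3 ranges without overlap. The ligands of NKG2D, the product of Klrk1, had few or no reads in sham. Of 7 listed, 4 had enough counts to be tested, and 3 of these, with 0 sham counts, passed the filter through the injured kidneys, so no count is drawn from the list. Ulbp1 was at 0.0972 and 0.368 CPM in sham and 1.43 to 2.19 in uIRI, and rose by 2.89 ± 0.556 (adjusted p = 0.0024). Raet1e, another such ligand, had 0 counts in sham, 221 in uIRI and 105 in uIRI+MSC.

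Most of the further T and NK cell genes listed were higher in uIRI. Of 21 other genes of TCR signalling and T cell identity 15 rose, 1 fell and 5 were not called, with a median of 2.24; the adaptor Lcp2 rose by 3.60 ± 0.332 (adjusted p = 7.54e-05). Of 15 other cytotoxic and NK genes 13 rose, with a median of 2.42. Tyrobp, an adaptor shared by NK and myeloid cells, rose by 3.80 ± 0.272, while Xcl1, a chemokine of NK and CD8 cells, stood at 0.486 and 0.184 CPM in sham, 1.92, 1.43 and 2.26 in uIRI, then 0.628, 0.500 and 0.420 in uIRI+MSC. Its groups did not overlap between uIRI and uIRI+MSC, at -1.81 ± 0.387 (adjusted p = 0.111).

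Exhaustion-associated and regulatory genes rose for the most part. Of 8 exhaustion-associated genes 7 rose with a median of 2.52, among them Havcr2, which encodes TIM-3 and is also carried by myeloid cells, by 3.72 ± 0.375 (adjusted p = 0.000106). Nr4a3, also on this list, had 2 counts in sham. Of 8 regulatory T cell genes 6 rose and 1 fell, with a median of 1.67. Entpd1, which encodes CD39, rose by 1.89 ± 0.252, while Nt5e, which encodes CD73 and completes the path to adenosine, fell by 1.48 (adjusted p = 0.00179), from 393 and 276 CPM in sham to 97.7, 169 and 91.9 in uIRI. Sham had 0 counts of Foxp3, although Entpd1 was at 13.6 and 17.1 CPM there, and which cells carried Entpd1 was not tested. The proximal tubule markers fell beside Nt5e in 7 of 7 cases, with a median of -2.87. Their part in the change of Nt5e was not tested.

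Genes of gamma-delta and innate-like T cells were the least uniform list, with 1 of 6 higher, 1 lower and 4 not called. Among all tested genes 28.3% were called higher and 26.3% lower. The gene called higher was Trdc, which passed the low-count filter through the injured kidneys. Trdc, the constant gene of the TCR delta chain, had 1 count in sham, 101 in uIRI and 9 in uIRI+MSC, at 2.49, 0.513 and 0.612 CPM in uIRI, then 0.167, 0.143 and 0.252 in uIRI+MSC. The 2 injured groups did not overlap, and the change of uIRI+MSC against uIRI was -2.70 ± 0.798 (adjusted p = 0.13). Zbtb16, the PLZF factor of innate-like T cells, fell by 1.00 in uIRI against sham (adjusted p = 0.0482). It had 167 counts in sham, where Cd3e had 6 and 13 and Trdc had 1. Which cells carried Zbtb16 was not tested, so its fall does not measure innate-like T cells. In uIRI+MSC against uIRI, 0 genes of any of these 9 lists were called, and all 9 medians were negative, from -0.49 to -0.25.

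**Figure D4:**
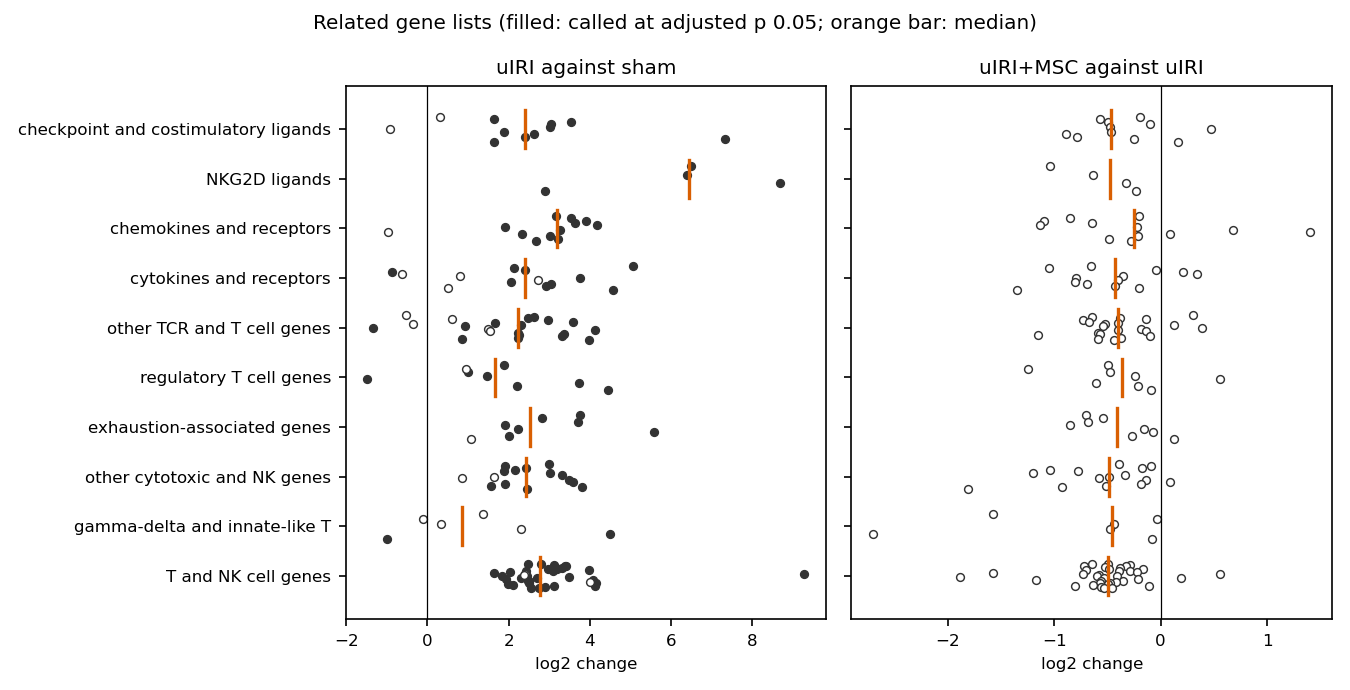
Log2 change of each tested gene of 9 related lists and of the 36 T and NK cell genes (bottom row) in uIRI against sham (left) and uIRI+MSC against uIRI (right); filled points were called and orange bars are medians. Points beyond 6 on the left are fitted values for genes at 0 counts in sham and are no exact folds. Nearly all filled points on the left lie above 0, and on the right 0 points are filled.

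Other blood cells that could carry some of these genes were measured beside them. B and plasma cell markers summed to 5.93 and 10.3 CPM in sham, between 15.1 and 20.9 in uIRI, and between 13.4 and 19.1 in uIRI+MSC, with 2 of 7 higher and 1 lower in uIRI. Of 5 neutrophil markers 2 had enough counts to be tested and both rose, while Ly6g, which defines the cells, had at most 0.101 CPM. Mast cell and basophil markers summed to 1.00 CPM or less in every library, and the defining protease gene Mcpt4 was at 0 in 6 of 8 libraries. Their part in the values of the T and NK cell genes was not tested.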

How the data were processed

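Messenger RNA of mouse kidney was sequenced in 8 libraries (2 sham, 3 uIRI, 3 uIRI+MSC). The deposited table gives raw counts per gene for 34745 genes on GRCm38, per the file headers and labels. The same table holds FPKM values, in which the authors' counts are scaled to gene length and library size, per the file headers. The submitters' processing notes name HISAT2 2.0.4 and StringTie 1.3.3b among their tools, besides edgeR 3.2.0, with no roles given; the counting program, strand setting and treatment of reads that match several genes are not stated in the sources used.

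Counts were analysed with edgeR 4.0.16 in R 4.3.3: genes were filtered with filterByExpr (minimum count 10), libraries scaled by TMM, and all 8 libraries fitted together with the quasi-likelihood test, with 5 residual degrees of freedom. P-values were adjusted by the Benjamini-Hochberg method over 16576 genes with a threshold of 0.05. FPKM was used for levels and ratios only. Alternatives were DESeq2 1.42.0, limma-voom 3.58.1, other scalings and filters, a replicate block and each library left out in turn. The test was checked on simulated data. Counting intervals and limits cover counting error only. The 36 genes and all lists were chosen with earlier results of these data known. All 36 are described. Of each related list, genes could be named if they were among the 3 with the smallest p in uIRI against sham or the 2 in uIRI+MSC against uIRI, and of each marker list the first 2; Il15 and further markers (Xcr1, Flt3, Clec9a, Csf1r, Adgre1, Ly6g, Mcpt4) were named, where outside this rule, after their values were seen.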

Additional observations from a re-analysis of the deposited data

How the results depend on the processing

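In uIRI against sham 33 of the 36 genes were called higher, and leaving out each library in turn gave 26 (without sham 2) to 34. In uIRI+MSC against sham the count was 29, with a range of 22 (without sham 2) to 29. In both comparisons 0 were called lower in all alternatives. In uIRI+MSC against uIRI 0 were called in either direction under every alternative except DESeq2, which called 2 lower (Eomes and Lag3). Scaling by library size alone moved the median of all genes by 0.667, 0.513 and -0.153 in uIRI against sham, uIRI+MSC against sham and uIRI+MSC against uIRI, and turned the calls of all genes from 4683 higher and 4361 lower to 9044 and 1989 in uIRI against sham, and from 3671 and 3358 to 7400 and 1352 in uIRI+MSC against sham. The medians of the 36 genes were then 3.44, 2.83 and -0.645.

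Leaving out a library turned the direction of 8 differences, of which 0 had been called. In uIRI+MSC against sham Eomes ranged from -0.3918 to 0.2909. In uIRI+MSC against uIRI the ranges were -0.4793 to 0.1739 for Cd5, -0.4606 to 0.22 for Ctla4, -0.6498 to 1.074 for Gzma, -0.9727 to 0.356 for Gzmb, -0.4273 to 0.07631 for Klrk1, -1.507 to 0.2554 for Ncr1 and -0.4705 to 0.1741 for Tigit. The cause was not tested. Groups share replicate numbers, but libraries of the same number did not deviate together (r between -0.209 and 0.111), so the numbers were not taken as pairs; with a replicate block 32 and 27 genes were called higher in the comparisons with sham and 0 in uIRI+MSC against uIRI, and Tbx21 in uIRI against sham missed the threshold (adjusted p = 0.0504). Sham counts of 0 to 49 limit the precision of every change from sham.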
